A study of Mus musculus with 4 samples.

Results

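Promoters with a gene name whose accessible chromatin was lower in satellite cells of mdx mice than of wild type mice are described here, 437 promoters of 437 genes. They were chosen by measured values: an autosomal region whose centre lies within 1000 bp of the start of a named gene, with at least 50 scaled reads in both wild type libraries, and with the lower wild type value at least 1.4 times the higher mdx value. The deposited table holds 35019 regions, of which 9731 are such named autosomal promoters and 7291 of those reach the wild type minimum. Members therefore make up 5.99% of the promoters that could enter. The same rule turned round, with mdx above wild type, found 91 of 6863 promoters, or 1.33%. Both mdx values lay below both wild type values at 50.4% of the 7291 promoters, so most promoters with that order did not reach the ratio of 1.4. All 4 libraries entered the rule, so the differences between the groups are given as a description, with no test, and the separation of the groups in each member was required by the rule.

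ATAC-seq, in which the Tn5 transposase cuts and tags open chromatin, was applied to quiescent satellite cells, the resting stem cells of skeletal muscle, purified by flow cytometry. One group carried the mdx genotype, a loss of dystrophin that models Duchenne muscular dystrophy, and the other was wild type, with no age, sex or strain among the labels used here. The design text names 3 mice per condition, 2 libraries per condition were analysed here, and nothing in the labels says that they came from separate animals, so any spread given is that between libraries, which may be technical. Each library started from 10000 to 20000 sorted cells. Values are scaled reads, the reads in a region multiplied by the authors by 1 factor per library and rounded, and they are listed below as mdx replicates 1 and 2, then wild type replicates 1 and 2. Coordinates are mm10.

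An accessible promoter is one where nucleosomes are displaced around the start of a gene, so that transcription factors and the polymerase machinery can reach the DNA. Accessibility is needed for transcription but does not measure it: promoters rich in CpG dinucleotides are commonly open in many cell types, including ones where the gene is little transcribed. Quiescent satellite cells hold a compact nucleus with little cytoplasm, express Pax7, and enter the cell cycle and the myogenic programme when muscle is damaged, as happens repeatedly in mdx muscle.

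Promoters of 6 members are shown by sequence, each the 250 bases before a RefSeq start that overlaps the region, 5′ to 3′ on the gene's strand (GRCm38.p6, the build of mm10), with every CpG dinucleotide in capitals. A RefSeq start can differ from the deposited start that the rule used. By the deposited starts, the Slc4a4 stretch lies inside the gene, as do parts of the Met and Nova1 stretches. The 6 members cover some roles and leave out others, such as chromatin proteins, metabolic enzymes and the ubiquitin system. Shown are a splicing factor (Nova1, chr12:46818768-46819017, minus strand), an ion transporter (Slc4a4, chr5:88887010-88887259, plus strand), a transcription factor (Tox2, chr2:163202877-163203126, plus strand), a Wnt pathway adaptor (Dact1, chr12:71309634-71309883, plus strand), a motor protein (Myh14, chr7:44670844-44671093, minus strand) and a growth factor receptor (Met, chr6:17463707-17463956, plus strand).
Nova1: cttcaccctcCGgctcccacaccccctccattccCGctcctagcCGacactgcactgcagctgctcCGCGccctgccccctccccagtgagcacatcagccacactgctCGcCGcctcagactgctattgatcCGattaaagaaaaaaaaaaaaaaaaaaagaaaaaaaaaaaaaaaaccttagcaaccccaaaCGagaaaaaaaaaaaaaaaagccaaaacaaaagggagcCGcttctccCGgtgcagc
Slc4a4: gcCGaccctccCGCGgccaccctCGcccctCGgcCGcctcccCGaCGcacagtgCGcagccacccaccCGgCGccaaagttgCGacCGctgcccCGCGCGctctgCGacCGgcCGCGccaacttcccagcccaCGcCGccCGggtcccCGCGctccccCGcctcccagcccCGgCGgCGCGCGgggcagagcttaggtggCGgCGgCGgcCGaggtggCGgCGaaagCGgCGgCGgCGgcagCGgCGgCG
Tox2: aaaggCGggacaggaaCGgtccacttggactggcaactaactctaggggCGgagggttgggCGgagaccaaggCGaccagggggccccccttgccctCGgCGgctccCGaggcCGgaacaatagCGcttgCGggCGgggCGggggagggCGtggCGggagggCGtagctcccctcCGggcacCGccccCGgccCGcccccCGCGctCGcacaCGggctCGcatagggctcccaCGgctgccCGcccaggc
Dact1: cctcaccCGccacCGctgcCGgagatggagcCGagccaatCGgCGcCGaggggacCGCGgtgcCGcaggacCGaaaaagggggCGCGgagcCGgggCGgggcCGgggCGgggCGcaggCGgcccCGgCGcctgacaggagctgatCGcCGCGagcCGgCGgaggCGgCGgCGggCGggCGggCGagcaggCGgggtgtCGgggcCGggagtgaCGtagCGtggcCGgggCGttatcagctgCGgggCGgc
Myh14: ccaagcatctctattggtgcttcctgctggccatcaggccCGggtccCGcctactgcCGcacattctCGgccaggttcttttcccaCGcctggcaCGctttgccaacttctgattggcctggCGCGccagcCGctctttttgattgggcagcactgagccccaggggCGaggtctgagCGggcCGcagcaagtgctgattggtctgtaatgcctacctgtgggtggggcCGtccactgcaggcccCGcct
Met: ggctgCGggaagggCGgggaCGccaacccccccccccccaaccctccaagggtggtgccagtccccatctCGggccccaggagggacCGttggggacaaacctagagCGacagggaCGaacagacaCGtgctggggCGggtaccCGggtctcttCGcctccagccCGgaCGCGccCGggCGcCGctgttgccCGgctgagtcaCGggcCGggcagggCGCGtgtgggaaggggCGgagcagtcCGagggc
The 6 stretches differ widely in composition. Slc4a4 holds 44 CpG dinucleotides at 82.0% GC and Dact1 41 at 80.4%, whereas Nova1 holds 11 at 50.0% GC around runs of adenine, and Myh14 holds 14 at 63.6%. Tox2 holds 27 and Met 24. The accessible region covers the whole stretch in Slc4a4, Dact1, Myh14 and Met and 249 of its bases in Tox2, but 123 in Nova1.

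Divided by the estimated factors, the libraries held 3208320 and 3607443 reads in the listed regions in mdx and 3693345 and 8165069 in wild type. The number for wild type replicate 2 rests on an assumption about its factor, given with the processing below. If that holds, this library had the smallest counting error. All regions centred within 1000 bp of a gene start took 51.14% and 55.41% of non-mitochondrial reads in the mdx libraries, against 62.7% and 59.61% in the wild type libraries. The members alone took 1.545% and 1.65% against 2.825% and 2.642%. The share of all reads in mitochondrial regions was 17.74% and 13.72% against 14.05% and 9.311%. The part of these library-wide differences in the members' values was not tested. In these bulk samples, fewer cells with an open promoter and a less open promoter in every cell cannot be told apart.

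Of the 16 satellite cell markers, 11 had a promoter region, with summed values of 2268 and 2300 in mdx and 2696 and 2642 in wild type. Pax7, the defining transcription factor of the lineage, held 90, 103, 93 and 124 scaled reads, and Myf5, a myogenic determination factor, 214, 218, 241 and 189. For both genes the mdx and wild type values overlapped. Over the 11 regions the mean difference was below 0 for 9, and for 6, Sox8, Sdc4, Hey1, Spry1, Heyl and Msc, both mdx values lay below both wild type values. That order held at 50.4% of the 7291 promoters at the wild type minimum, and the median difference over all named promoters was -0.26. The count of 6 is therefore near that share, although Fgfr4 and Chrdl2 among the 11 did not reach the minimum. The share of all promoters with a mean difference below 0 was not counted, so nothing is read from the 9. Hey1, a Notch target, held 614, 715, 917 and 872. None of the 10 haematopoietic markers and 1 of the 10 endothelial markers (Tek) had a promoter region. The 6 promoter regions of fibro-adipogenic progenitor markers summed to 396 and 422 in mdx and 317 and 308 in wild type, and both mdx values lay above both wild type values in 4 of them. The share of all promoters with that upward order was not counted, so nothing is read from these 4. Of these genes 2, Col1a2 and Osr1, met the rule turned round, as did 1.33% of the promoters that could enter it. Cd34, of the same list, went the other way, with 53 and 72 in mdx against 132 and 87 in wild type. At Dcn the groups overlapped. The 3 promoter regions of muscle fibre markers summed to 415 and 531 in mdx and 543 and 468 in wild type. These sums overlapped, although the groups did not overlap at any of the 3 genes, with 2 higher and 1 lower in mdx. The share of all promoters without overlap in either direction was not counted, so nothing is read from these 3. Casq1, calsequestrin, which met the rule turned round, held 97, 70, 24 and 31, Myh1 87, 110, 44 and 73, and Mylpf, lower in mdx, 231, 351, 475 and 364. The summed values also overlapped over the 4 smooth muscle and pericyte regions (472, 413, 487 and 470) and the single tenocyte region (28, 44, 73 and 40). The 2 Schwann cell regions summed to 29, 62, 61 and 63. Over the 3 regions of activated and committed myoblast markers, the sums of 295 and 371 in mdx lay below 419 and 422 in wild type. Both mdx values lay below both wild type values at 2 of these regions, beside the 50.4% of promoters given above. No gene of these lists was a member, and no listed promoter region had a mean of 0. The part of other cell types in the members' values was not tested.

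Across the members, the lowest, median and highest values were 3, 76 and 1041 in mdx replicate 1 and 7, 79 and 1081 in mdx replicate 2, against 50, 159 and 1818 in wild type replicate 1 and 50, 136 and 1571 in wild type replicate 2. The ratio of the lower wild type to the higher mdx value had a median of 1.53. It was under 1.5 in 179 members, 1.5 to under 2 in 210, and 2 or more in 48. Most members thus showed moderate differences close to the required ratio. Wild type replicate 1 was above replicate 2 at 351 members (80.3%), against 73.7% of the other promoters at the wild type minimum, and mdx replicate 1 was below replicate 2 at 260 (59.5%), against 64.2%. Just inside it, at 1.4, were Dcp1b, a decapping cofactor, with 84, 125, 243 and 175 scaled reads, Luc7l3, a splicing factor, with 29, 45, 65 and 63, and Ptgr2, a prostaglandin reductase, with 40, 34, 75 and 56. Just outside were Eci2 with 213, 184, 346 and 298, Emsy with 236, 271, 459 and 379, and Srp9 with 229, 225, 395 and 320. The mdx minus wild type difference of log2(value + 1) had a median of -0.85 over the members, against -0.26 over all named autosomal promoters tested and -0.01 over all tested regions.

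**Figure D1:**
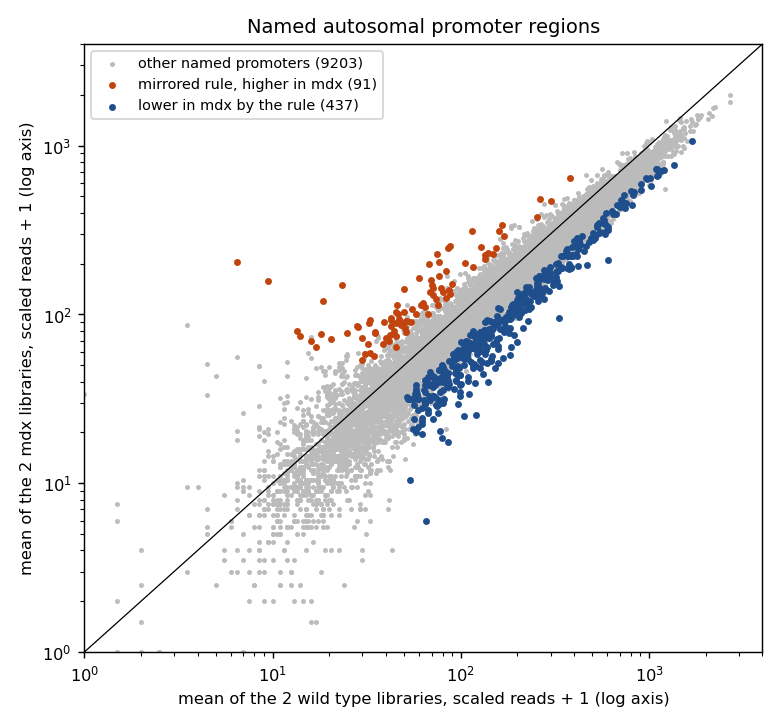
Mean of the 2 mdx libraries against mean of the 2 wild type libraries, in scaled reads plus 1 on log axes, for the 9731 named autosomal promoters, with the 437 members (blue) and the 91 promoters of the rule turned round (orange). Members lie below the diagonal over the whole range of levels, from a wild type value of 50 up to Pnrc1 at 1818 and 1571.

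With the moderated test of limma across all 33161 tested regions, 138 of the 437 members (31.6%) had an adjusted p under 0.05 and a lower value in mdx. The background shares called lower were 0.881% of all tested regions, 1.84% of 9601 named autosomal promoters and 2.35% of the 7291 at the wild type minimum. The shares called higher were 3.3% of all regions and 0.448% of named promoters. Since the rule used the same values, nothing is read from the members' count. Another 39 named promoters were called lower without being members, 6 of them with a wild type value under 50. The members' count was 31 with no filter on low values and 82 to 400 under other scalings. It was 0 in limma fits that left out any 1 library, where 187 to 312 members had an unadjusted p under 0.05.

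Of the 12 members with the largest ratios, 11 are described here. Slc1a3, the glutamate and aspartate transporter known from astrocytes, held 7 and 12 scaled reads in mdx against 53 and 52 in wild type, a ratio of 4.33, with wild type values only just over the required minimum. Low counts were not the rule: the library with the fewest reads held a median of 53 reads per member, and 35 members had a library with under 20 reads.

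Prkch, a protein kinase C isoform, held 14 and 35 scaled reads in mdx against 122 and 116 in wild type. Its mdx libraries differed from each other more than its wild type libraries did. Lrrc9, a gene of leucine-rich repeats, held 23 and 10 against 76 and 93. Trhde, a membrane peptidase that degrades thyrotropin-releasing hormone, held 14 and 21 against 88 and 68. Tcf24, a basic helix-loop-helix factor, held 33 and 15 against 98 and 107. Over these 4 promoters the highest mdx value was 35 and the lowest wild type value 68.

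Nova1 stood out among the promoters with the largest ratios for its level. This splicing regulator, best known from neurons, held 206 and 211 scaled reads in mdx against 584 and 630 in wild type, or 208.5 ± 3.5 against 607.0 ± 32.5 (SD, n = 2 libraries per group). A gap between the groups was required for a place among the largest ratios, so it is not read against this spread. Slc4a4, a sodium bicarbonate cotransporter, was the other high promoter of this group, with 106 and 82 against 377 and 284. Kcnb2, a voltage-gated potassium channel subunit, held 53 and 48 against 145 and 170. Ugt8, which makes galactosylceramide, a myelin lipid, held 35 and 22 against 97 and 94. The others of these 11 were Tox2, an HMG-box factor, with 33 and 43 against 112 and 125, and Dact1, which binds Dishevelled in the Wnt pathway, with 75 and 60 against 200 and 195.

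**Figure D2:**
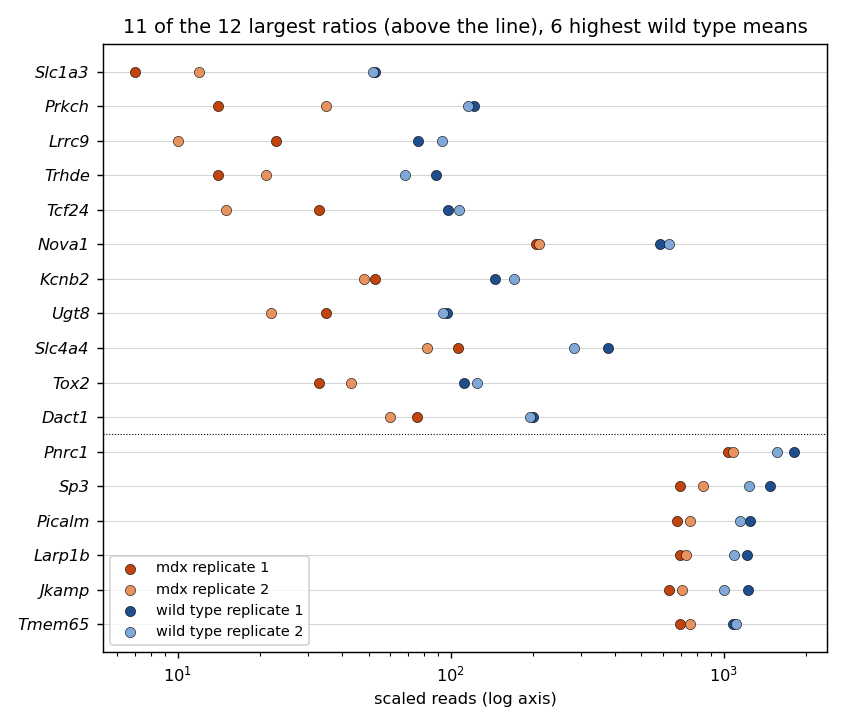
Scaled reads on a log axis in each of the 4 libraries for 11 of the 12 members with the largest ratio and the 6 with the highest wild type mean, 1 point per library. The gap between the groups is wide for Slc1a3 (7 and 12 against 53 and 52) and narrow for the high promoters such as Tmem65 (692 and 754 against 1085 and 1108).

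The 6 members with the highest wild type means had ratios near the threshold, from 1.43 to 1.52. Pnrc1, a nuclear receptor coregulator, held 1041 and 1081 scaled reads in mdx against 1818 and 1571 in wild type. Sp3, a GC box binding factor, held 691 and 838 against 1474 and 1234. Picalm, a clathrin assembly protein of endocytosis, held 676 and 753 against 1251 and 1144. All 3 regions lay at genes of general cell functions, transcription and endocytosis. Larp1b, an RNA-binding protein of the La-related family, held 691 and 731 against 1219 and 1093. Jkamp, a membrane protein that binds the kinase JNK, held 632 and 701 against 1230 and 1001, and Tmem65, a mitochondrial membrane protein, 692 and 754 against 1085 and 1108.

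Roles were assigned by hand to 380 members in 23 classes after their names and values had been seen, and 57 were left without one. These counts have no share over all promoters beside them and rank nothing. The classes hold 33 DNA-binding factors, 29 chromatin proteins and coregulators, 28 metabolic enzymes, 26 genes of the ubiquitin system, 24 of the cytoskeleton, 24 of endosomes, Golgi and autophagy, 23 of RNA processing, 22 ion channels and transporters, and 22 signalling adaptors and related enzymes, with 20 or fewer in each of the others. The median ratio of the classes ran from 1.45 in the 3 G protein gamma subunits to 1.75 in ion channels and transporters. The latter class also held 6 of the 48 members with a ratio of 2 or more, the genes without a role 8, and the ubiquitin system 0. Such ratios were commoner at low levels, at 1.63% of promoters in the lowest of 5 ranges of wild type mean and 0.137% in the highest. The median wild type mean was 105.25 in ion channels and transporters and 199.75 in the ubiquitin system.

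**Figure D3:**
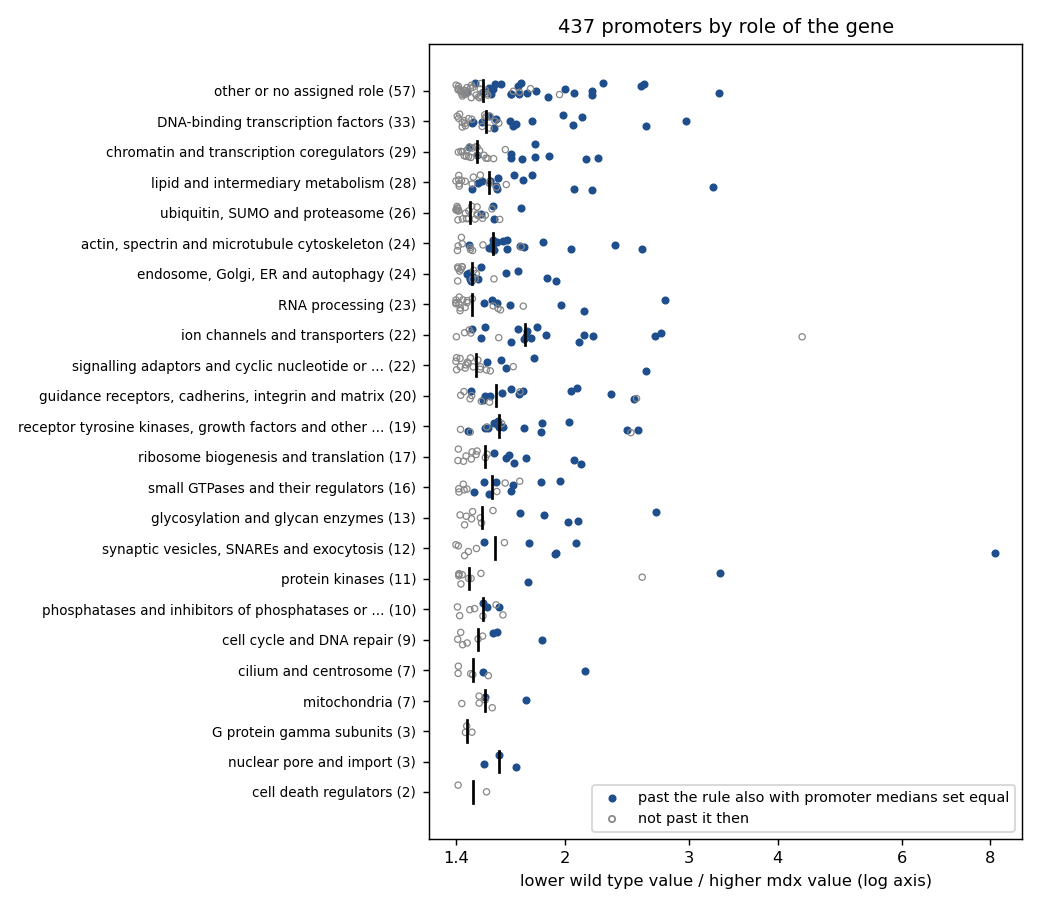
Ratio of the lower wild type to the higher mdx value (log axis) for each member, 1 point per promoter, in the 24 classes, the unassigned one included, with class medians as bars. Filled points met the rule also with equal promoter medians and open points did not. All points lie at or above 1.4, as the rule requires, and ion channels and transporters have the highest median, 1.75.

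Among the ion channel members, potassium channel genes were the most numerous. Potassium channel promoters that could enter were not counted, so nothing is read from that number. Besides Kcnb2, Kcnma1, the pore of the calcium-activated BK channel, held 37, 57, 104 and 125 scaled reads, and its accessory subunit Kcnmb4 held 32, 46, 77 and 84. Pore and accessory subunit of the same channel were thus both members. Kcnh5, of the ether-à-go-go family, held 116, 121, 213 and 253, and Cacnb4, a calcium channel beta subunit, 86, 37, 161 and 154, with mdx libraries that differed by more than 2 times. Gabrr2, a GABA receptor subunit, held 55, 59, 101 and 102. By symbol, 7 of the 45 ion channel promoters that could enter were members, or 15.6%, against 5.99% of all promoters. Of 115 solute carrier promoters 8 were members (6.96%), led by Slc1a3, Slc4a4 and Slc35g2, which held 26, 17, 65 and 57.

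Receptors and growth factors included 2 fibroblast growth factor receptors with different ratios, 2.45 and 1.47. Fgfr3 held 37 and 38 scaled reads in mdx against 106 and 93 in wild type. Fgfr2 held 39 and 45 against 66 and 74, near the threshold. Met, the receptor for hepatocyte growth factor, a signal that activates satellite cells, was the highest of these promoters, with 265 and 352 against 627 and 542, or 308.5 ± 61.5 against 584.5 ± 60.1 (SD, n = 2). Of the ligands, Nrg4, a neuregulin that binds ErbB4, held 55, 45, 131 and 102, and Fgf5 held 68, 63, 136 and 119. Mertk, a receptor for phosphatidylserine-bound ligands on dying cells, held 55, 56, 111 and 90. In all, 6 of 42 promoters of receptor tyrosine kinases and their ligands were members (14.3%). Kl, the Klotho co-receptor of FGF23, held 11, 36, 66 and 57, with mdx libraries far apart. Cd24a, a small surface glycoprotein, held 26 and 26 against 66 and 66, the same value in both libraries of each group. Adrb1, the beta-1 adrenergic receptor, held 44, 59, 149 and 109, and Agtr1a, the angiotensin II receptor, 65, 71, 121 and 116. The list of interferon, cytokine and innate immunity genes had 5 members of 88 promoters (5.68%). More promoters of that list, 8, met the rule turned round. Tlr6, a Toll-like receptor, held 32, 29, 54 and 52, Cd302, a C-type lectin receptor, 75, 56, 136 and 121, and Il17ra, an interleukin 17 receptor subunit, 36, 38, 59 and 54.

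Guidance and adhesion genes made up 20 members, 5 of them with a ratio of 2 or more. Dpysl5, a cytosolic mediator of growth cone signals, held 21 and 19 scaled reads in mdx against 56 and 53 in wild type. Plxnc1, a semaphorin receptor, held 29 and 50 against 112 and 104, and the related Plxnd1 146 and 132 against 254 and 252. Among the members the 2 plexins therefore differed in level more than in ratio. Unc5c, a netrin receptor, held 122, 151, 258 and 236, and Slitrk5, a neuronal transmembrane protein, 141, 146, 304 and 214. These made 5 of 26 axon guidance promoters (19.2%), and 2 promoters of that list met the rule turned round. Of the cadherins, Dchs1, a large cadherin that binds Fat4, held 15, 24, 93 and 60, Cdh4, retinal cadherin, 54, 33, 150 and 110, and Pcdh10, a protocadherin, 112, 100, 261 and 195. Cadherin and junction promoters were members in 5 of 57 cases (8.77%), and 2 of that list met the rule turned round. Coch, an extracellular matrix protein of the inner ear, held 37, 29, 132 and 86, and Reck, a membrane-anchored inhibitor of matrix metalloproteinases, 88, 89, 170 and 145. Matrix and integrin promoters were members at 3 of 83 (3.61%), with Itga8, an integrin alpha subunit, at 142, 132, 255 and 204 and Svep1, a large matrix protein, at 43, 64, 115 and 91. More promoters of this list, 5, met the rule turned round.

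Syntrophins are adaptors that bind dystrophin and its relatives, and 2 were members. Sntb2 held 80 and 102 scaled reads in mdx against 156 and 165 in wild type, and Sntg2 held 178 and 143 against 335 and 251. They were picked for their known link to dystrophin after the members were seen. Syntrophin promoters that could enter were not counted, so no share stands beside these 2 and nothing is read from them. Sntb2 had a ratio of 1.53, was not called lower by limma and did not meet the rule with equal promoter medians. Glycan enzymes included Hs3st3a1, a heparan sulfate sulfotransferase, with 73, 40, 211 and 152, and Xylt1, which starts glycosaminoglycan chains, with 58, 37, 133 and 117. Of 72 glycosyltransferase and sulfotransferase promoters, 5 were members (6.94%).

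The cytoskeletal members were led by Myh14, a nonmuscle myosin II heavy chain, with 70 and 56 scaled reads in mdx against 189 and 180 in wild type. Cttnbp2, a cortactin-binding protein, held 40 and 24 against 94 and 103. The spectrin and ankyrin pair Sptb and Ank2, parts of the membrane skeleton, held 66, 98, 228 and 200 and 44, 51, 95 and 98. Pfn2, profilin 2, which binds actin monomers, was among the higher ones with 299, 290, 520 and 518. Arhgef7, an exchange factor of small GTPases, held 44, 53, 142 and 98, and Arhgap39, a GTPase-activating protein, 23, 29, 67 and 50. Of 121 promoters of Ras, Rap and Rab GTPases and their regulators 3 were members (2.48%). Rasd2, a Ras-related GTPase, held 101, 117, 238 and 230, Nras 59, 58, 97 and 117, and Dennd5a, a Rab exchange factor, 120, 148, 281 and 220.

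Genes of synaptic vesicles and exocytosis made up 12 members. Sybu, syntabulin, which links cargo to kinesin, held 43, 36, 89 and 97 scaled reads. Syt9, a calcium-sensing synaptotagmin, held 50 and 46 in mdx and 97 and 97 in wild type. Unc13b and Rims1, which prime vesicles for release, held 40, 29, 87 and 71 and 50, 30, 82 and 104. The syntaxins Stx4a, Stx11 and Stx3, which carry out membrane fusion, had ratios of 1.46, 1.41 and 1.4, at the lower end of the members. Of 184 promoters of vesicle trafficking and autophagy 15 were members (8.15%), with Sec22c, of the endoplasmic reticulum, at 82, 87, 164 and 177, and Atg2a, a lipid transfer protein of autophagy, at 37, 42, 98 and 72. Zdhhc2, a palmitoyltransferase outside that list, held 75, 80, 183 and 155.

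Among the DNA-binding factors, Prdm16, a regulator of brown fat identity, held 36 and 31 scaled reads in mdx against 77 and 76 in wild type. Satb1, a chromatin organiser, held 76 and 77 against 200 and 158, and Runx1t1, a corepressor, 77 and 67 against 153 and 164. In these 3 promoters the mdx libraries differed by at most 10. Nuclear receptors were members at 4 of 23 promoters (17.4%): Rxra, the shared partner of many nuclear receptors, held 39, 21, 64 and 62, Nr2c1 145, 109, 265 and 223, Nr3c1, the glucocorticoid receptor, 210, 241, 452 and 367, and Rorb 51, 59, 87 and 109. Foxo1, a forkhead factor that Akt keeps out of the nucleus, held 77, 109, 188 and 173. Id3, an inhibitor of basic helix-loop-helix factors, held 95, 99, 158 and 151. Zic1, a zinc finger factor of neural and limb development, held 39, 35, 73 and 61. Zinc finger genes named Zfp, Zbtb or Zscan were members at 5 of 210 promoters (2.38%), with Zfp583 at 44, 41, 83 and 75, Zfp318 at 76, 86, 177 and 145, and Zfp385b at 23, 41, 66 and 74. Another 4 zinc finger promoters met the rule turned round. Homeobox factors were members at 1 of 34 (2.94%) and Sox factors at 0 of 8.

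The chromatin members act in several systems. Asxl3, a Polycomb-group partner, held 30 and 44 scaled reads in mdx against 99 and 98 in wild type. Jarid2, which recruits Polycomb repressive complex 2, held 193 and 182 against 445 and 323. Msl1 and Msl2, parts of a complex that acetylates histone H4, held 25, 37, 79 and 67 and 299, 333, 629 and 578. The 2 genes of that complex therefore met the rule at very different levels. Arid4a, a retinoblastoma-binding protein, held 409, 480, 825 and 804, Kdm1b, a histone H3 lysine demethylase, 246, 318, 508 and 470, and Nsd3, a histone H3 lysine methyltransferase, 177, 196, 386 and 294. Mbd6, a protein with a methyl-CpG binding domain, held 30, 36, 57 and 58. In the list of chromatin regulators 9 of 112 promoters were members (8.04%).

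RNA processing was represented at 13 of 173 promoters by symbol (7.51%). After Nova1 came Snrpa1, a U2 snRNP protein, with 41 and 63 scaled reads in mdx against 154 and 134 in wild type, and Hnrnpr, an hnRNP, with 77 and 73 against 228 and 152. Ribosomal protein and translation promoters were members at 7 of 122 (5.74%). They included Rpl19, a protein of the large ribosomal subunit, with 28, 22, 73 and 59. Eif4ebp2, which restrains the cap-binding factor eIF4E, held 46 and 81 in mdx and 137 and 137 in wild type. Mitochondrial and oxidative phosphorylation promoters were members at 3 of 78 (3.85%), and these were low in level: Ndufv1, of complex I, held 37, 36, 75 and 65, Timm17a, of the inner membrane import channel, 29, 50, 77 and 78, and Cox6b2 51, 46, 79 and 77. Among metabolic enzymes Pla2g12a, a secreted phospholipase, held 100, 80, 237 and 218, and Pggt1b, a subunit of a prenyltransferase, 33, 31, 68 and 72. Elovl7, a fatty acid elongase, held 50, 72, 149 and 122. Pde3a, a phosphodiesterase of cyclic AMP, held 236 and 237 against 369 and 351, in a list of lipid and cyclic nucleotide enzymes with 6 members of 115 (5.22%).

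Signalling enzymes mostly lay near the threshold. Prkaa1, a catalytic subunit of AMP-activated kinase, held 391 and 393 scaled reads in mdx against 709 and 578 in wild type. Mark1, a microtubule affinity kinase, had the larger ratio of 2.57, with 21 and 20 against 54 and 63. Sgk3, a kinase related to Akt, held 170, 181, 275 and 290, and protein kinases outside the receptor class were members at 9 of 196 promoters (4.59%). Phosphatases were members at 8 of 122 (6.56%), with Ptprz1, a receptor tyrosine phosphatase, at 124, 152, 248 and 251, Ppp1r3c, a glycogen-targeting subunit, at 133, 149, 321 and 240, and Ppp1r16a at 47, 45, 75 and 76. Among the G protein lists Gng7, a gamma subunit, held 40, 34, 68 and 59, and 6 of 80 promoters were members (7.5%). Another 4 promoters there met the rule turned round. Among the Wnt pathway, 4 of 33 promoters were members (12.1%): Daam2 held 32, 29, 54 and 55, Daam1 269, 300, 561 and 465, Tle3, a corepressor, 50, 48, 82 and 75, and Prickle2 130, 139, 195 and 200. Notch pathway promoters were members at 0 of 21 and TGF-beta and BMP promoters at 1 of 44. The ubiquitin list had 15 of 274 members (5.47%), with Cul3, a scaffold of ubiquitin ligases, at 409, 381, 684 and 644 and Rnf144a, a ubiquitin ligase, at 90, 117, 191 and 189.

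Cell cycle genes were members at 4 of 161 promoters (2.48%). E2f6, a repressive E2F, held 41 and 41 scaled reads in mdx against 89 and 64 in wild type. Rad17, a DNA damage checkpoint clamp loader, held 203, 243, 371 and 381, and Ccne2, cyclin E2, 213, 228, 331 and 366. Its relative Ccne1 was a member too, with 250, 299, 589 and 421. On the list of Fam, Ccdc and other genes named without a function, 25 of 397 promoters were members (6.3%), and 11 promoters met the rule turned round. Fam131b held 47, 48, 177 and 124 and Fam184a 37, 41, 171 and 105, both with wild type replicate 1 well above replicate 2. Of 111 tetraspanin and Tmem promoters 7 were members (6.31%). Tmem108 held 7, 31, 61 and 52, Tmem256 181, 152, 279 and 300, and Tmem63b 66, 62, 110 and 97.

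Cell death genes, the subject of the series title, held 3 members among 36 promoters (8.33%), all with modest ratios. In the same list 2 promoters met the rule turned round, so the list holds promoters that go both ways. Ripk1, the kinase upstream of necroptosis, held 176 and 189 scaled reads in mdx against 269 and 285 in wild type, a ratio of 1.42. Bcl2l11, the proapoptotic protein Bim, held 203 and 193 against 326 and 314, and Birc3, an inhibitor of apoptosis protein and ubiquitin ligase, 133 and 99 against 214 and 205. None of these 3 was among the 138 members called lower, and none met the rule after the libraries were rescaled to equal promoter medians.

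The level of a promoter and the scaling of the libraries both bear on which promoters are members. The share of members was 8.64% in the lowest of 5 classes of wild type mean (50.0 to 97.5 scaled reads) and 4.39% in the highest (410.0 to 2677.0). The rule turned round gave 2.56% and 0.282% in the same ranges of the mdx mean. After the libraries were rescaled to equal medians over all promoters, 189 promoters met the rule, all of them members, and 177 met it turned round, against 437 and 91 as deposited. With equal medians over distal regions 1496 met it, all 437 members among them, and 32 turned round. These scalings moved the median difference of all regions from -0.01 to 0.19 and to -0.32, respectively. The rule's count therefore shifts with the scaling as a whole. Of the 48 members with a ratio of 2 or more, 44 still met the rule with equal promoter medians, and the 4 that did not were Slc1a3, Mark1, Paqr9 and Dpysl5.

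**Figure D4:**
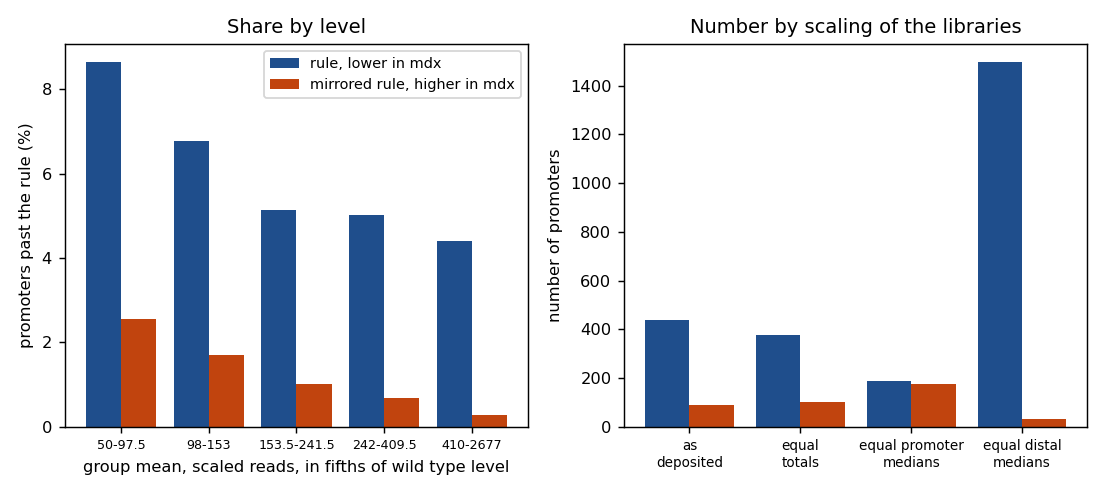
Share of promoters that met the rule (percent) in 5 classes of wild type mean, beside the rule turned round (by mdx mean), and the number of promoters that met each rule under 4 scalings. The share falls from 8.64% to 4.39% with level, and the count runs from 189 to 1496 with the scaling.

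Gene length is a property that the rule did not use, and members are set here beside the other promoters at the wild type minimum. RefSeq gives a length for 435 members, with a median of 38.2 kb, and for 6801 of the other promoters' genes, with a median of 28.9 kb. Genes longer than 100 kb were 111 of 435 members (25.5%) and 1069 of 6801 others (15.7%). The share was 20.9% for ratios under 1.5, 25.7% from 1.5 to under 2, and 41.7% (20 of 48) for 2 or more, and it was 21.6% for the rule turned round. In the 5 classes of level, from low to high, the members' share was 20.6%, 24.5%, 34.7%, 30.6% and 20.3%, against 12.9%, 12.5%, 14.5%, 18.3% and 20.2% for the others, so the gap was absent in the highest class. Long genes among the members include Ccser1, Pard3b, Kcnma1, Ank2 and Rims1. The difference was not tested because promoters of one set of libraries are not replicates.

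The regions were of ordinary size, with a median width of 611 bp (209 to 2136) against 620 bp in the other promoters. Their centres lay slightly farther from the start, at a median of 117 bp against 94 bp, and 187 of 437 (42.8%) lay within 100 bp against 52.9%. A median fraction of 0.6 of the region lay inside the gene body, against 0.5. The members were spread over all 19 autosomes, from 4.06% of promoters on chromosome 16 (11 of 271) to 9.41% on chromosome 12 (27 of 287). Another member lay within 100 kb of 47 members (10.8%), and a member lay within 100 kb of 6.45% of the other promoters at the wild type minimum, a difference that was not tested. For 7 members there were 2 others. These 7 were Mrpl42, Ube2n and Nudt4 on chromosome 10, Nhlrc1, Kdm1b and Dek on chromosome 13, and Rragd on chromosome 4, near Ankrd6 and Gabrr2.

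Distal regions near the members were examined in the same way. Within 50 kb, 273 members had at least 1 distal region, and the median difference of these was below 0 for 163 of the 273 (59.7%), against 40.4% of 4101 other promoters. The median over the 273 was -0.09 on the log2(value + 1) scale, close to 0, against 0.12 for the others, and it was -0.05 for ratios under 1.5. For ratios of 2 or more it was 20 of 26 (76.9%), with a median of -0.38. The rule turned round gave 7.55% of 53, with a median of 0.76. These values come from the same contrast and libraries as the rule and are given as a description.

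**Figure D5:**
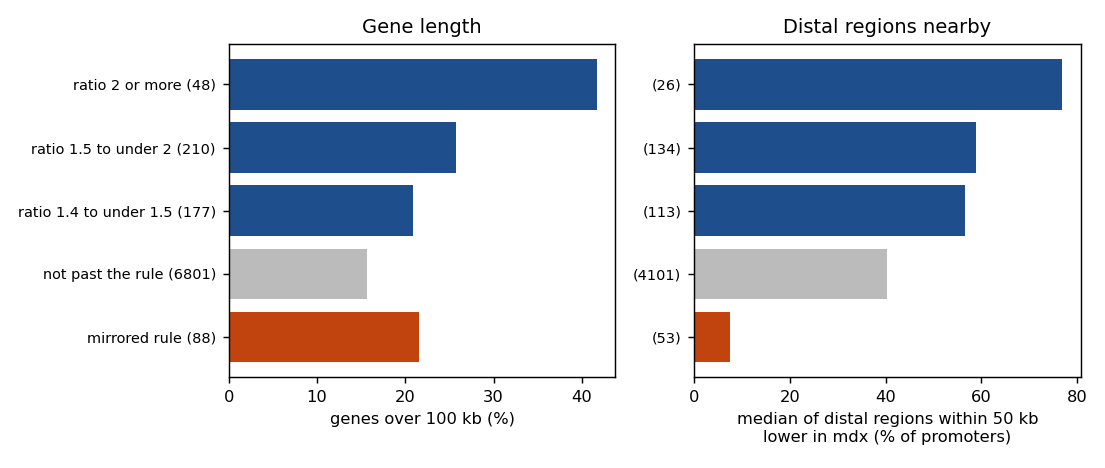
Share of genes longer than 100 kb (left, percent) and share of promoters whose distal regions within 50 kb had a median below 0 in mdx minus wild type (right, percent), by ratio class of the members, for the other promoters at the wild type minimum and for the rule turned round, with the number of promoters in brackets. From the lowest to the highest ratio class the shares rise from 20.9% to 41.7% and from 56.6% to 76.9%, against 15.7% and 40.4% in the other promoters.

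Promoter sequence could be matched for 324 of the 437 members (74.1%) and 72.0% of all named promoters, under the 80% set as needed, so the comparison of sequence features is void and the values describe the matched promoters only. Of these, 277 (85.5%) were rich in CpG, with an observed-to-expected ratio of at least 0.6 and GC of at least 50%, against 82.9% of the matched other promoters. With an observed-to-expected minimum of 0.75 the order turned, at 61.4% against 63.7%. At 0.6 the rule turned round gave 40.4%. The GC box, GGGCGG on either strand, was found in 79.0% of matched members, 75.9% of the matched others at the wild type minimum and 73.5% of all matched promoters, and the core of Ets sites, CCGGAA on either strand, in 24.4%, 31.1% and 30.2%. A match says only that these letters occur in the 300 bases around the start.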

How the data were processed

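The submitters' processing notes name the build mm10 and the tools MACS2 2.1.0, STAR 2.5.3a, Trimmomatic 0.33, Picard 2.9.0, DESeq and DESeq2. What each tool did is not given in the sources used here. In the 1 table the authors deposited, the 4 library values are treated as a score because the authors scaled and rounded reads. Factors of 1.382, 1.162 and 1.222 explain the whole numbers that never occur in mdx 1, mdx 2 and wild type 1. Wild type 2 skips no whole number. Its factor of 0.492 was estimated from how often each value occurs, on the assumption that the 4 factors have a product near 1. The deposited distance to the start is in bp, and the deposited fraction is the part of a region inside the gene body. Whether starts count from 0 or 1 is not stated.

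The members, lists, roles and tests were chosen with earlier results of these data known. Named genes are the 12 largest ratios, the 6 highest wild type means, the 3 on either side of the ratio of 1.4, up to 3 members of each symbol family with at least 3, and clustered members. Other genes were named by role after their values were seen. limma 3.58.1 (R 4.3.3) was run on log2(value + 1) with group as the only term, over regions with at least 10 in at least 2 libraries, with Benjamini-Hochberg adjustment and a threshold of 0.05, and was tested on simulated data. Other work used Python 3.11.15, pandas 2.3.3 and SciPy 1.17.1. Numbers of reads were estimated by dividing the deposited values by the factors. Gene lengths and sequences are RefSeq's (GRCm38.p6), matched by symbol. The results of some members are not reported here.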

Additional observations from a re-analysis of the deposited data

How the results depend on the processing

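The count of members of the rule, 437, became 1442 at a ratio of 1.2, 151 at 1.6 and 48 at 2, 285 with a wild type minimum of 100, 189 with equal promoter medians and 1496 with equal distal medians. Leaving out each library in turn gave 576 to 1907: 779 and 1598 when mdx replicate 1 or 2 was dropped, 576 and 1907 when wild type replicate 1 or 2 was. Those counts could only rise, because dropping a library can only relax the rule. The count of members stayed within 1.5 times with a minimum of 30, other distances, the sex chromosomes or equal totals. The promoters called lower (limma), 177, became 281 with a pseudocount of 5, 32 with no filter, 523 with a mean of at least 50, 101 with equal promoter medians, 1535 with equal distal medians and 282 with the trend with level removed by cyclic loess. The members called lower, 138, became 31, 247, 82, 400 and 219 under the last 5 of these. With the replicate block, promoters called lower were 362 and members called lower 202, and with the crossed pairing, chosen after seeing the data, 1363 and 351. Same-numbered libraries deviated with r = -0.1086 over 33161 regions, and share only a number. Without any 1 library, limma called 0 to 0 promoters and 0 to 0 members, with 280 to 1230 promoters and 187 to 312 members at an unadjusted p under 0.05. Such fits leave 1 library in a group, which is assumed to vary like the other group. Over the 106 named genes and all these fits, 1046 values kept their side of the threshold, 149 passed it newly and 274 no longer passed. Of promoter calls, 19.5% were higher, against 44.2% with equal promoter medians and 2.23% with equal distal medians. The CpG-rich share of members, 85.5%, became 61.4% with an observed-to-expected minimum of 0.75, where the other promoters' 82.9% became 63.7%. The GC content of whole regions was not analysed.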
